A study of Mus musculus with 8 samples.

Results

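The accessible chromatin around 6 genes that regulate self-antigen expression in the thymus, Aire, Fezf2, Prdm1, Chd4, Hipk2 and Sirt1, was examined in mouse medullary thymic epithelial cells (mTECs) profiled by ATAC-seq. In this assay the Tn5 transposase inserts adapters where DNA is not covered by nucleosomes, and a region is a stretch of the genome in which insertions were called as a peak. A region was assigned to a gene when it overlapped the gene body or the 20 kb on either side of it, on the mm10 build with GENCODE M21 gene models. By this rule 37 of 57124 regions were assigned, and they covered 10585 bases. The rule used position alone and no measured level.

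The mTECs came from the thymus of mice of the genotype wt and were sorted by flow cytometry on Tspan8 and MHC class II. Tspan8 is a surface protein that is itself a tissue-restricted antigen in mTECs. MHC class II rises as mTECs mature and, per the study, falls again in late mTECs, so MHCIIlow cells include immature and late stages. The 4 groups were Tspan8neg MHCIIlow, Tspan8pos MHCIIlow, Tspan8neg MHCIIhigh and Tspan8pos MHCIIhigh, each with 2 biological replicates, and the labels give no treatment. Whether a sample held cells of several mice was not given in the sources used here. Called peaks had been merged into 1 consensus set that names no sample, so the group or groups in which a region was called are not known. The read counts over the regions could not be tied to the samples by their labels, so no level per sample, no difference between groups and no depth is given. What follows describes where the regions lie, how wide they are and which sequence they hold, and the values have no replicate error. Regions lay at the promoters of all 7 epithelial and mTEC marker genes that were checked (Epcam, Krt5, Krt8, Krt14, Cldn4, H2-Ab1 and Cd80), and no region lay within 1000 bases of a start of the 4 leukocyte genes Ptprc, Cd3e, Cd4 and Cd8a. Over all protein-coding genes, 48.6% had a region at a promoter and 63.1% had one within 1000 bases of a start. These marker genes were chosen after the region set had been seen, so they are no test of cell purity.

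mTECs transcribe genes that are otherwise restricted to single peripheral tissues, and developing T cells that recognise the products are deleted or become regulatory T cells. Aire, the autoimmune regulator, is a nuclear protein that promotes the transcription of many of these genes in mature mTECs, and Fezf2 is a zinc finger transcription factor that controls a largely separate set. Prdm1 encodes Blimp1, a zinc finger repressor. Chd4 is the ATPase of the NuRD chromatin remodelling complex and a partner of Fezf2, Hipk2 is a kinase that phosphorylates Aire, and Sirt1 is a deacetylase that removes acetyl groups from Aire.

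The sequence upstream of an annotated start is shown for 5 of the genes. The accessible starts differed in their density of CpG dinucleotides, which is high in CpG island promoters. The Prdm1 and Sirt1 stretches lie inside the annotated gene body, which reaches further upstream. All sequences were read from the GRCm38 reference, the assembly behind mm10, 5′ to 3′ on the strand of the gene. They leave out every annotated exon and lie inside the region at the start. Capitals mark CG.
Aire, chr10:78043611-78043697, minus strand: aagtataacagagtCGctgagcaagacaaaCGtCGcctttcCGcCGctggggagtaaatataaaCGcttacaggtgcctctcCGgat
Prdm1, chr10:44458749-44459019, minus strand: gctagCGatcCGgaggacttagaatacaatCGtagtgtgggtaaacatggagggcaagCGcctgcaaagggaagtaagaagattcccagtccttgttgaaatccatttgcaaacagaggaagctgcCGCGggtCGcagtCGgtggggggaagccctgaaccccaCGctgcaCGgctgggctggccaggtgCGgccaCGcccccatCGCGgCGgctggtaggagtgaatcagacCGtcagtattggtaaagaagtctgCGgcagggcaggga
Chd4, chr6:125095845-125095980, plus strand: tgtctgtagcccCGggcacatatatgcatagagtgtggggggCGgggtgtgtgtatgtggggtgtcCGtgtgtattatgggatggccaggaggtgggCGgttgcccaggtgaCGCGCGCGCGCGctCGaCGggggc
Hipk2, chr6:38876166-38876465, minus strand: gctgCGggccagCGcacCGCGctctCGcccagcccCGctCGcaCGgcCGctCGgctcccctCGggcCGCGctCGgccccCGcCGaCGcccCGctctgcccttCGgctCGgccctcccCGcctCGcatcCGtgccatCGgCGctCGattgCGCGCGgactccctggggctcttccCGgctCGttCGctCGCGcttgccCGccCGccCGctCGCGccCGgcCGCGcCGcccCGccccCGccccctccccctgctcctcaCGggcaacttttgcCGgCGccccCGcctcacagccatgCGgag
Sirt1, chr10:63339051-63339350, minus strand: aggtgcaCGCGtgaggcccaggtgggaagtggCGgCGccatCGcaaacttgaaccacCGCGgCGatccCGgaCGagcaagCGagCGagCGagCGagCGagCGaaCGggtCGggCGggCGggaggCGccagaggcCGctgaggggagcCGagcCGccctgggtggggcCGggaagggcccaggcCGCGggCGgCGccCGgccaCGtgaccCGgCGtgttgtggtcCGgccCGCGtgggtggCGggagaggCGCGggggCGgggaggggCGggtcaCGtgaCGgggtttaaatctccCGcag
The Hipk2 stretch held 50 CG in 300 bases and the Sirt1 stretch 44 in 300 bases. The Chd4 stretch held 12 in 136 bases, the Aire stretch 7 in 87 bases and the Prdm1 stretch 17 in 271 bases. Per 100 bases this came to 16.7 in Hipk2, 14.7 in Sirt1, 8.82 in Chd4, 8.05 in Aire and 6.27 in Prdm1. The region at the Fezf2 start lies within an exon and is not printed.

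The next 4 sequences lie away from the starts and are shown for the motif matches they hold. In the first, from the region upstream of Aire, capitals mark the match to the NF-kB consensus. In the others capitals mark AP-1 matches (TGANTCA) and KLF matches (GGGNGTGG), which may be read on either strand.
Aire upstream region, chr10:78046482-78046781, minus strand: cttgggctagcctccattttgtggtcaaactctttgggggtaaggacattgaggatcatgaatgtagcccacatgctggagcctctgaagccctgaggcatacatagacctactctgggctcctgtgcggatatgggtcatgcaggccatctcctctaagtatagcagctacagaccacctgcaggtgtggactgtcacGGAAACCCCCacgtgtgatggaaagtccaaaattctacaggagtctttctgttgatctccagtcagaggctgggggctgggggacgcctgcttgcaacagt
Fezf2 downstream region, chr14:12341205-12341371, minus strand: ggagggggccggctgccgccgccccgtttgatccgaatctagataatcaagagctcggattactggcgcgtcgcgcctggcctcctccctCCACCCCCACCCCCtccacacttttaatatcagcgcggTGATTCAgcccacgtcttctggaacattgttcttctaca
Prdm1 downstream region, chr10:44420235-44420463, minus strand: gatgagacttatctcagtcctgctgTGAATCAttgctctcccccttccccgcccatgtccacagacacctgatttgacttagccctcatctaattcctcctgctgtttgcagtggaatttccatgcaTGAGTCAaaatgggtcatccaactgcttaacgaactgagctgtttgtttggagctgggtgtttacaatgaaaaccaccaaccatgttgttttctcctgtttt
Hipk2 intronic region, chr6:38809529-38809678, minus strand: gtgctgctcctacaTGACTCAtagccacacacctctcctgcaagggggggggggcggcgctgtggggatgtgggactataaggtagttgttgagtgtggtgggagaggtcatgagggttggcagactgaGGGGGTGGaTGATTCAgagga
The Aire and Hipk2 stretches are the first 300 and the first 150 bases of their regions by coordinate, and the other 2 are whole regions. The capitals in the Fezf2 sequence are 2 KLF matches that overlap by 2 bases and 1 AP-1 match. The Prdm1 sequence holds 2 AP-1 matches. The Hipk2 stretch holds 2 AP-1 matches and 1 KLF match.

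A region was called a promoter region when its centre lay from 1000 bases upstream to 100 bases downstream of an annotated transcription start. Of the 6 genes, 4 had a promoter region (Aire, Prdm1, Chd4 and Hipk2), compared with 10664 of 21938 protein-coding genes (48.6%). All 6 had a region within 1000 bases of a start, against a background of 63.1%. A region lay over a start in 5 of the 6, all but Fezf2, against a background of 56.4%. With 6 genes these counts are descriptions and were not tested.

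The 6 start regions differed 4.94-fold in width, from 198 bases in Fezf2 to 979 bases in Sirt1, with a median of 533.5 bases. Over the 13839 protein-coding genes with a region within 1000 bases of a start, the widest such region had a median of 584 bases. Fezf2 and Aire had the narrowest start regions of the 6. The Fezf2 region (chr14:12345631-12345828) was wider than those of 7.32% of these genes, and the 311-base Aire region (chr10:78043387-78043697) was wider than 15.0%. The Prdm1 region spanned 483 bases (chr10:44458537-44459019, wider than 35.5% of genes). The widest start regions were those of Chd4, Hipk2 and Sirt1. Chd4 had 584 bases (chr6:125095845-125096428, wider than 49.9%), Hipk2 had 780 bases (chr6:38875841-38876620, wider than 73.7%) and Sirt1 had 979 bases (chr10:63338426-63339404, wider than 88.6%).

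**Figure D1:**
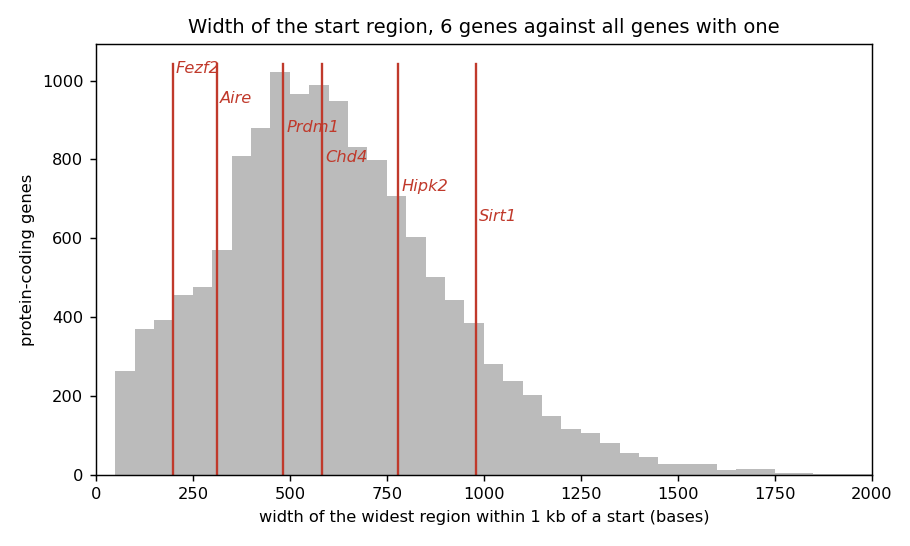
Width in bases of the widest region within 1000 bases of a transcription start, as a histogram over protein-coding genes with such a region, with the 6 genes marked. Fezf2 (198 bases) and Aire (311 bases) lie to the left of the median of 584 bases and Hipk2 and Sirt1 to the right, and 11 genes with a region wider than 2000 bases are beyond the axis.

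The region at a start was not centred alike in the 6 genes. Distances are from the start nearest to the centre of the region, so another start would give another distance. In Hipk2, Prdm1 and Chd4 the centre lay 65.5, 30 and 25.5 bases upstream of the start. The Chd4 region also covered another start, chr6:125095981, and its centre lay downstream of that one. In Aire the centre lay 38 bases downstream of the start, and the region overlapped the first coding exon. In Sirt1 the centre lay 117 bases downstream, just outside the promoter limit, although the region covered the start. In Fezf2 the centre lay 114.5 bases downstream of the nearest start, and the region ended 16 bases short of it, within an untranslated exon. Starts are those of the annotation, and the start used in mTECs was not measured.

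The number of regions in a window, the gene body with 20 kb on either side, ranged from 2 at Fezf2 to 11 at Sirt1. The median over all protein-coding genes was 3, and 4069 of them (18.5%) had none. Windows differ in length, so each gene was also set beside the protein-coding genes whose windows were within 1.5-fold of its own in length. Sirt1 (11 regions, or 10.7 per 100 kb) had more than 97.1% of 5894 such genes, whose median was 3. Chd4 (6 regions, 8.04 per 100 kb) had more than 82.7%, Aire (5 regions, 9.33 per 100 kb) more than 78.9% and Prdm1 (7 regions, 5.33 per 100 kb) more than 76.7% of genes of like length. Hipk2, the longest of the 6, had 6 regions, 2.71 per 100 kb, and exceeded 53.2%. Fezf2 had 2 regions, 4.34 per 100 kb. Its count equalled the median of genes of like length, of which 38.8% had fewer and 15.1% the same number.

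**Figure D2:**
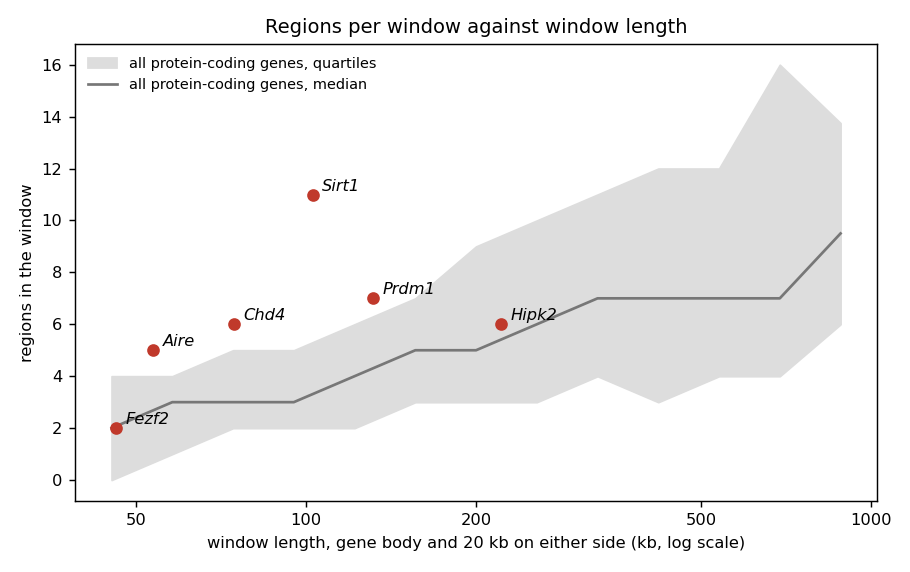
Number of regions in the window of each of the 6 genes (points) against window length in kb on a log scale, with the median (line) and quartiles (band) over all protein-coding genes in bins of window length. Sirt1 with 11 regions lies furthest above the line, and Fezf2 has the fewest regions, 2.

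Of the 37 regions, 4 were promoter regions of the 6 genes, 3 lay beside or over a start without meeting the promoter limit, and 4 were promoter regions of a neighbouring gene (Nop2, Iffo1, Tbxas1 and Dnajc12). The other 26 comprised 10 inside a gene body, 8 upstream and 8 downstream of it. These 26 had a median width of 182 bases, compared with 176 bases over the 44627 regions outside promoters in the whole set. Among the 37, 17 (45.9%) were narrower than 200 bases, compared with 47.4% in the whole set.

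**Figure D3:**
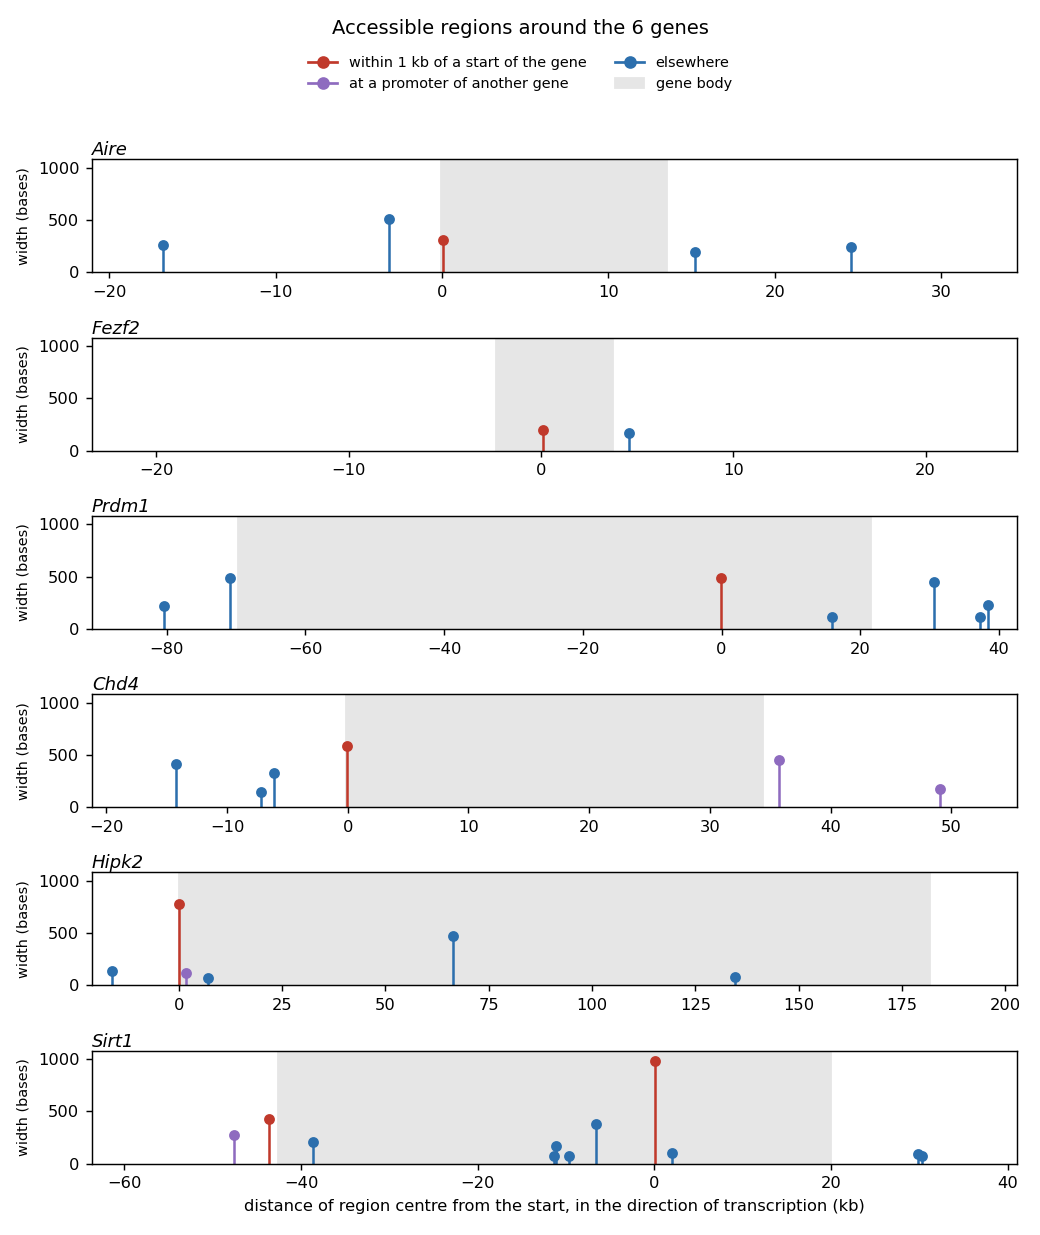
Position of the regions around each gene, with the distance of the region centre from the start at the start region on the horizontal axis in kb, upstream to the left, and the width of the region in bases as the height. Grey shading is the gene body, and colours mark regions within 1 kb of a start, promoter regions of another gene and all others. Sirt1 shows 11 regions and Fezf2 2, and Aire shows its widest region upstream of the start.

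Aire (ENSMUSG00000000731.15, chr10:78030022-78043610, minus strand) had 5 regions, 1 over its start and 4 outside the gene body. The widest was not the promoter region but a region of 512 bases upstream (chr10:78046482-78046993), with its centre 3157.5 bases upstream of the start. It lay in the body of the neighbouring gene Dnmt3l, a regulator of DNA methylation in germ cells, and overlapped no exon. Its centre was 3104.5 bases upstream of a Dnmt3l start, which is nearer than the Aire start. The region was wider than 82.3% of all regions and 201 bases wider than the Aire promoter region. A conserved noncoding element upstream of Aire that responds to NF-kB is known, and whether this region is that element was not tested. The match to the NF-kB consensus in it (chr10:78046573-78046582) lay 2997.5 bases upstream of the Aire start and is in capitals in the sequence above. Such a match was present in 19.5% of all regions of 400 to 799 bases. Further upstream, 16770.5 bases from the start, lay a region of 258 bases, also in Dnmt3l. On the other side of the gene, regions of 196 and 238 bases lay 1586 and 10909 bases past its end. The next region on that side was 20069 bases from the gene, just outside the window. The Aire promoter region itself also overlapped the body of Dnmt3l, with its centre 1255 bases downstream of a Dnmt3l start.

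Prdm1 (ENSMUSG00000038151.13, chr10:44437177-44528501, minus strand) had 7 regions, and it was the other gene of the 6 with a distal region wider than its start region, by 4 bases. That region (chr10:44529332-44529818, 487 bases) lay 70827 bases upstream of the start and 831 bases outside the annotated gene body, which reaches so far upstream only through 1 transcript that is not in the basic annotation. That transcript starts at the upstream end of the gene body. The region thus lay within 1000 bases of its start, and is distal only with respect to the starts of the basic annotation. A distal region wider than the widest region near a start was found for 2056 of 13839 protein-coding genes (14.9%). Downstream of Prdm1 lay regions of 451, 229 and 115 bases, the last 2 inside the noncoding gene Gm35028, and the gene body held a single further region of 109 bases. A region of 215 bases lay 80386 bases upstream.

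Fezf2 (ENSMUSG00000021743.6, chr14:12342094-12348189, minus strand) had, besides the region near its start, 1 region of 167 bases (chr14:12341205-12341371) that lay 723 bases past the end of the gene. No region lay upstream of Fezf2 within 20 kb, and the next one was 28480 bases away. On the downstream side the next region beyond the window was 45387 bases from the gene. The 2 regions covered 0.792% of the window. Among the 6 genes this share ranged from 0.749% at Hipk2 to 2.83% at Aire.

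Chd4 (ENSMUSG00000063870.12, chr6:125095981-125130591, plus strand) had no region inside its body apart from the promoter region. Regions of 328, 146 and 410 bases lay 5766, 6905 and 13831 bases upstream of the gene, the last within coding sequence of Lpar5, a lysophosphatidic acid receptor. The other 2 were the promoter regions of its neighbours Nop2 (454 bases) and Iffo1 (177 bases). Hipk2 (ENSMUSG00000061436.15, chr6:38694390-38876165, minus strand) had 5 of its 6 regions inside the gene body. The widest after the promoter region was an intronic region of 471 bases (chr6:38809529-38809999), 66401 bases into the gene from the main start and 27460 bases from the nearest annotated start. The intronic regions of 69 and 83 bases were wider than 0.299% and 8.48% of all regions, and the region of 115 bases lay 920 bases upstream of the start of Tbxas1, the thromboxane synthase gene. The Hipk2 promoter region also overlapped the body of Tbxas1, with its centre 826.5 bases downstream of a Tbxas1 start.

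Sirt1 (ENSMUSG00000020063.16, chr10:63319005-63381704, minus strand) had 7 of its 11 regions inside the gene body. Besides the start region these were 1 region of 101 bases over a coding exon and 5 intronic regions of 70 to 381 bases. All 5 intronic regions lay upstream of the start at the start region, chr10:63339032. The gene body reaches them through transcripts that begin as far upstream as chr10:63381704, and the count of 11 depends on these transcripts. The widest intronic region (chr10:63345416-63345796) lay 6571 bases upstream of the nearest start and within the transcripts that begin further upstream. A region of 432 bases (chr10:63382503-63382934) lay 799 bases upstream of the outermost start, inside Dnajc12, whose own promoter region of 277 bases was also in the window. The 2 regions downstream of Sirt1, of 73 and 93 bases, lay in Herc4.

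The base composition of the regions was read from the reference. The CpG ratio is the number of CpG dinucleotides over the number that the C and G content would give, and vertebrate DNA outside CpG islands is depleted of them. The 6 start regions had a median GC content of 65.8% (56.6 to 79.5) and a median CpG ratio of 0.894 (0.865 to 1.08). Over all 12497 promoter regions, those of noncoding genes included, the medians were 64.6% and 0.768. The start regions of Fezf2 and Sirt1 do not meet the promoter limit, and the 4 that do had medians of 65.8% and 0.874. Hipk2 had a GC content of 79.5% with 124 CpG, higher than 99.5% of all regions, and Sirt1 had 78.2% with 157 CpG, higher than 99.1%. Aire (61.1%, 25 CpG), Prdm1 (63.4%, 42 CpG) and Chd4 (68.3%, 56 CpG) were lower. Fezf2 had the lowest GC content of the 6, 56.6%, with a CpG ratio of 0.907.

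The 26 distal regions had a median GC content of 52.7% and a median CpG ratio of 0.208, compared with 52.0% and 0.254 over all regions outside promoters. They were not alike. The region past the end of Fezf2 had a CpG ratio of 0.937 and the wide region upstream of Prdm1 one of 0.822, both near those of the start regions. This Prdm1 region is the one 831 bases from the start of a transcript outside the basic annotation. The wide region upstream of Aire had a ratio of 0.106, with 4 CpG in 512 bases, and the Aire promoter region had 0.868. The distal region of 410 bases near Chd4, in the Lpar5 coding exon, had 0.810. Soft-masked repeats made up at least 50% of 1 distal region, an intronic one in Sirt1 (57.8%), which is 3.85% of the 26 and compares with 3.64% of all regions outside promoters.

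**Figure D4:**
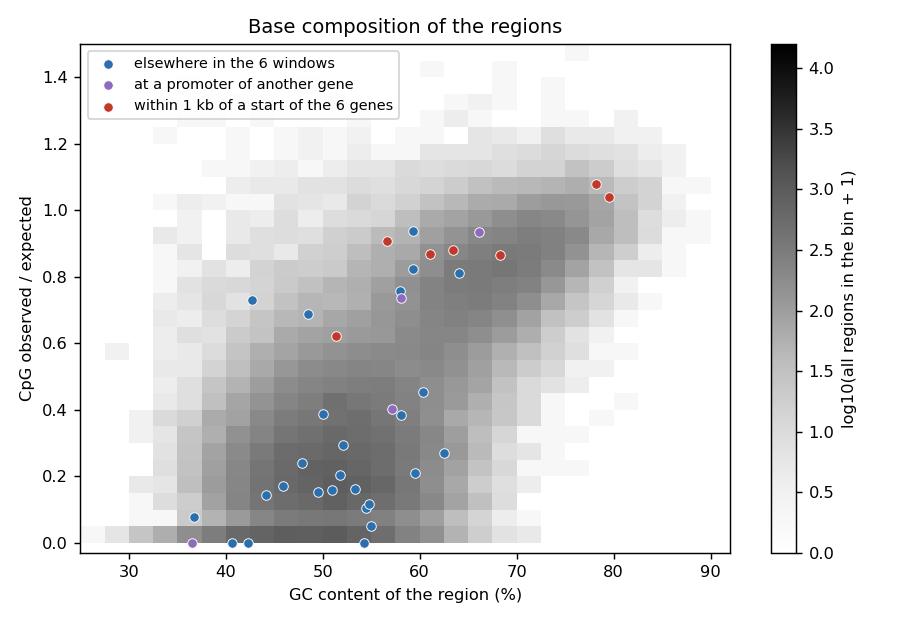
GC content in percent against CpG ratio for the 37 regions, with the number of all regions per bin in grey on a log10 scale and colours for regions within 1 kb of a start, promoter regions of another gene and all others. The 6 start regions lie at CpG ratios of 0.865 and above, the second region beside a Sirt1 start lies at 0.623, and the downstream region of Fezf2 is the highest of the distal ones at 0.937.

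Matches to 7 motifs were counted in the 37 regions on both strands. The motifs were the NF-kB consensus, AP-1 (TGANTCA), ETS (CCGGAAGT), KLF (GGGNGTGG), IRF (GAAANNGAA), an E-box (CAGCTG) and the TATA box (TATAAA). The share of all regions with a match was weighted to the widths of the 37. KLF matches lay in 8 of the 37 regions (21.6%, against 16.5% of all regions at these widths) and AP-1 matches in 6 (16.2% against 21.3%). TATA box matches lay in 4 (10.8% against 6.72%), NF-kB matches in 2 (5.41% against 14.7%) and E-box matches in 2 (5.41% against 20.6%). IRF matches lay in 2 (5.41% against 6.97%) and an ETS match in 1 (2.70% against 2.77%). The counts are small and were not tested, and a match does not show that a factor is bound.

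By gene, the 2 regions with an NF-kB match were the wide region upstream of Aire and the Chd4 promoter region. The Chd4 match lay 37.5 bases upstream of the start used here, chr6:125096162. It lay downstream of the other annotated Chd4 start, chr6:125095981, and inside an annotated exon. AP-1 matches lay in 2 regions each of Prdm1 and Hipk2, in the downstream region of Fezf2 and in the Dnajc12 promoter region at Sirt1. The Prdm1 promoter region had an AP-1 match 45 bases and a KLF match 74.5 bases upstream of the start. The Aire promoter region held a TATA box match 56.5 bases upstream of the start used here, chr10:78043580. The annotated gene begins further upstream, at chr10:78043610, which is nearer to the match. The Hipk2 and Sirt1 start regions, the widest 2, held a match to none of the 7 motifs. The ETS match lay in the region of 432 bases beside the outermost Sirt1 start.

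RefSeq promoter windows, 300 bases that reach mostly upstream of a start, were available for all 6 genes on GRCm38, 8 windows in total. The windows of Prdm1 and Sirt1, 1 of the 2 of Hipk2 and 1 of the 2 of Chd4 lay wholly inside a region. The Aire window overlapped its region over 137 of 300 bases and the Fezf2 window over 13. The second Hipk2 window overlapped no region. The Fezf2 window held 1 NF-kB match and 1 AP-1 match, motifs found in 4.51% and 7.81% of 32851 RefSeq promoters. The accessible region near the Fezf2 start held a match to neither. A Chd4 window also held an NF-kB match, and the Prdm1 window an AP-1 match. 

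Genes that work with Aire and Chd4 were described from lists by counts and medians, with no test. Of 19 partners and cofactors of Aire, 17 (89.5%) had a promoter region, all but Atf7ip and Top1, compared with the 48.6% given above, and all 19 had a region within 1000 bases of a start. Of 13 subunits of the NuRD complex, to which Chd4 belongs, 10 (76.9%) had a promoter region, and Chd3, Chd5 and Mta2 had none. The nearest region to a start of Chd5, a paralog of Chd4, was centred 12686.5 bases upstream. The widest region near a start had a median of 780 bases over the Aire partners and 924 bases over the 11 NuRD subunits that had one, compared with 584 bases over all genes. At 311 bases Aire was narrower than each of its 19 partners on this measure, and Chd4 at 584 bases equalled the median of all genes.

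**Figure D5:**
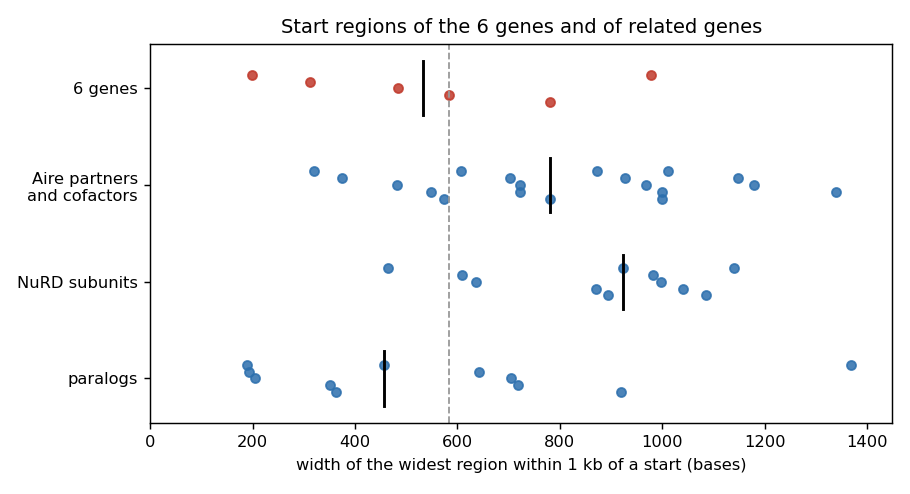
Width in bases of the widest region within 1000 bases of a start for each gene of the 3 lists and for the 6 genes, with a black bar at each median and a dashed line at the median over all protein-coding genes, 584 bases. Fezf2 and Aire lie at 198 and 311 bases, and the medians of the Aire partners and the NuRD subunits lie above the line.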

How the data were processed

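Per the labels and the study's methods, reads were aligned to mm10 with Bowtie2, peaks were called with MACS2 and the peaks were merged with bedtools by the authors. The file headers name featureCounts 2.0.3 as the counting tool. The sources used here do not say if peaks were called in each sample or on pooled reads. The deposited values used here were the start, end and width of each region in bases. The 8 count columns match no label of a sample, so they were not used, and no depth is given. The width of a region depends on peak calling and merging.

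Starts were taken from the basic set of GENCODE M21 and sequence from GRCm38. Motifs were searched by exact match on both strands, and overlapping matches were counted separately. The functions were tested on simulated data. The 6 genes and the 3 gene lists were chosen with earlier results of these data known. Another gene was named where its promoter or body held a region of the windows, or as an example from a list, namely those without a promoter region and those with the widest or narrowest one. The planned comparisons between groups were not run. Alternatives varied the window, the promoter limit, the annotation, width, the sequence searched and repeat content. The tools were Python 3.11.15, numpy 2.4.6, pandas 2.3.3 and matplotlib 3.10.9.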

Additional observations from a re-analysis of the deposited data

How the results depend on the processing

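The number of regions around the 6 genes was 37 with 20 kb on either side of the gene body, 61 with 50 kb and 17 in the gene bodies alone. Keeping regions of at least 200 bases left 20. The number of regions with an NF-kB match was 2, and it was 6 when each region was extended by 100 bases on either side and 1 within the central 200 bases. For these alternatives fewer or more bases were searched by construction. The other 10 of 15 alternatives, over 4 results, stayed within 1.5 times the value given. The number of genes with a promoter region was 4, and 5 with starts of all annotated transcripts, Sirt1 being the fifth. No paired analysis was possible because no count column could be tied to a numbered replicate. For the same reason the planned group comparisons, which were edgeR quasi-likelihood tests, were not run. Nor were a DESeq2 fit, the filter on low counts and leaving out each replicate. Depth limits which regions can be called, and it is not given here, so a start without a region is not shown to be closed.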

Other observations

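Paralogs of Aire, Fezf2, Hipk2 and Sirt1 were described in the same way, and paralogs of Prdm1 were not listed. Of these 11 paralogs, 8 (72.7%) had a promoter region, against 48.6% of protein-coding genes, and 11 had a region within 1000 bases of a start. The 3 without a promoter region were Fezf1, Sirt7 and Sp140. The Chd4 paralogs Chd3 and Chd5, counted above among the NuRD subunits, had neither, and with them 8 of 13 paralogs (61.5%) had a promoter region and 11 of 13 a region within 1000 bases of a start. The region near the start of Fezf1 was 193 bases wide and centred 712 bases downstream of the start, and that of its paralog Fezf2 was 198 bases wide and centred 114.5 bases downstream. The widest region near a start had a median of 456 bases over the 11 paralogs that had one. Hipk3 had the widest, 1369 bases, and its paralog Hipk2 had 780 bases.

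Of the 4 promoter regions of neighbouring genes in the windows, that of Nop2, a nucleolar RNA methyltransferase gene, was the widest (454 bases, centred 4.5 bases downstream of its start). It had a CpG ratio of 0.934 and held a KLF match and an IRF match. The promoter regions of Dnajc12, Iffo1 and Tbxas1 were 277, 177 and 115 bases wide.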
